A study of Mus musculus with 18 samples.

Results

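The 9 genes Aldh1a2, Aldh1a3, Crabp1, Crabp2, Cyp26b1, Rara, Rarb, Rarg and Rxrg of retinoic acid synthesis, binding, breakdown and sensing were read in dissected cortical tissue of mouse embryos lacking the transcription factors Dmrt3, Dmrt5 or both. They were chosen by name as members of the pathway, with earlier results of these data known. They make up 9 of the 38355 genes listed in each library. RNA sequencing covered 18 libraries of C57BL/6 embryos at stage E12.5: 5 of the Dmrt3-/-;Dmrt5-/- double knockout (KO), 4 of Dmrt5-/- (Dmrt5 KO), 5 of Dmrt3-/- (Dmrt3 KO) and 4 of wild type (WT). The construction of the alleles is not given in the sources used here. Whether each library is a separate embryo is not in the labels, and the p-values measure only the spread between these libraries, which may be partly technical. Replicate numbers follow the labels, and the Dmrt5 KO libraries carry numbers 1, 2, 4 and 5.

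Retinoic acid is made from vitamin A: retinol is oxidised to retinaldehyde, and the retinaldehyde dehydrogenases encoded by the Aldh1a genes oxidise that to retinoic acid. Cellular retinoic acid binding proteins (Crabp genes) hold the product in the cell, and Cyp26 enzymes degrade it. In the nucleus it binds retinoic acid receptors (Rara, Rarb, Rarg), which act as dimers with retinoid X receptors such as Rxrg on direct repeats of a short half-site in DNA. In the embryonic mouse forebrain the meninges are a known source through Aldh1a2, and Aldh1a3, Rarb and Rxrg are known in the lateral ganglionic eminence (LGE) and the striatum that forms from it. The LGE lies next to the cortex, so markers of it and of mesenchyme are given beside the values below.

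The sequence shown here is the direct repeat found in a member's promoter, because it is the kind of element through which the receptors described below act. The half-site AGGTCA, with the variant AGTTCA, the variant GGGTCA and the variant GGTTCA, was searched on both strands as direct repeats spaced by 1, 2 or 5 bases (DR1, DR2, DR5) in RefSeq promoters of build GRCm38.p6, each running from 250 bases before to 50 bases after the start. Of 12 promoters of 7 members, the Rarb promoter held a match, a DR5 at chr14:16575513-16575529 on the minus strand. The window chr14:16575507-16575535 around it reads 5′ to 3′ on the minus strand as follows, with the half-sites in capitals:
Rarb DR5: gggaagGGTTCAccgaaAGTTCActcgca
Over 32851 promoters, DR5 was found in 0.0974%, DR1 in 0.222%, DR2 in 0.268% and any of them in 0.588%. In the GENCODE M21 annotation the transcripts Rarb-201 and Rarb-207 begin upstream of this repeat, at 16575543 and 16575827, so there it lies inside their transcribed part. The other 11 promoters, of Rara, Rarg, Rxrg, Aldh1a2, Crabp1 and Cyp26b1, did not hold these letters. Aldh1a3 and Crabp2 were not among the promoters searched.

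Library totals ran from 19602718 to 33072896 counts, and levels are given as CPM, the normalised read count scaled to library size. A gene is called at an adjusted p under 0.05 in edgeR, adjusted over 16236 tested genes, which include the 9 members. Dmrt3 stood at 0 to 0.383 CPM in the double KO, 30.4 to 48.5 in Dmrt5 KO, 0.232 to 0.398 in Dmrt3 KO and 52.0 to 61.8 in WT. Dmrta2, the current symbol of Dmrt5, stood at 1.66 to 4.90 CPM in the double KO, 4.31 to 25.1 in Dmrt5 KO, 155 to 295 in Dmrt3 KO and 159 to 220 in WT. Dmrt5 KO replicate 1, at the top of its group for Dmrta2, carried both Xist (26.6 CPM) and Y-linked transcripts (111 CPM), and so did WT replicate 2 (462 and 13.6 CPM). Those libraries are named wherever a call changes without them. The summed level of 10 cortical markers was 1250 to 1526 CPM in the double KO, 1894 to 2025 in Dmrt5 KO, 2290 to 2677 in Dmrt3 KO and 2313 to 2809 in WT.

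Rxrg and Rara, both receptor genes, were called higher in the double KO by edgeR, and the other 7 members were not called by it. Both calls were lost in some settings below, that of Rara also without certain single libraries. Against WT, 2 of 9 members were called higher and 0 lower in the double KO, where 2.42% of all tested genes were called higher and 6.23% in either direction. An unadjusted p under 0.05 was found there for 3 of 9 (17.7% of all tested genes). DESeq2 called 3 of 9 (7.53%), Aldh1a3 among them. In Dmrt5 KO against WT, 0 of 9 were called by edgeR (1.03% of all tested genes). There 1 of 9 had an unadjusted p under 0.05 (11.3% of all tested genes) and 1 of 9 was called by DESeq2 (2.32%). In Dmrt3 KO against WT, 0 of 9 were called by edgeR (0.0123% of all tested genes), 1 had an unadjusted p under 0.05 (7.16%) and 0 were called by DESeq2 (0.248%). The 3 comparisons share the WT libraries. The 9 members were chosen with earlier results of these data known, so these counts describe the members and do not test the pathway. The other X receptor genes, Rxra and Rxrb, are not among the 9 and are given further below. The median log2 fold change of the 9 members was -0.14 in the double KO, -0.22 in Dmrt5 KO and 0.05 in Dmrt3 KO, beside 0.01, -0.02 and -0.00 over all tested genes.

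**Figure D1:**
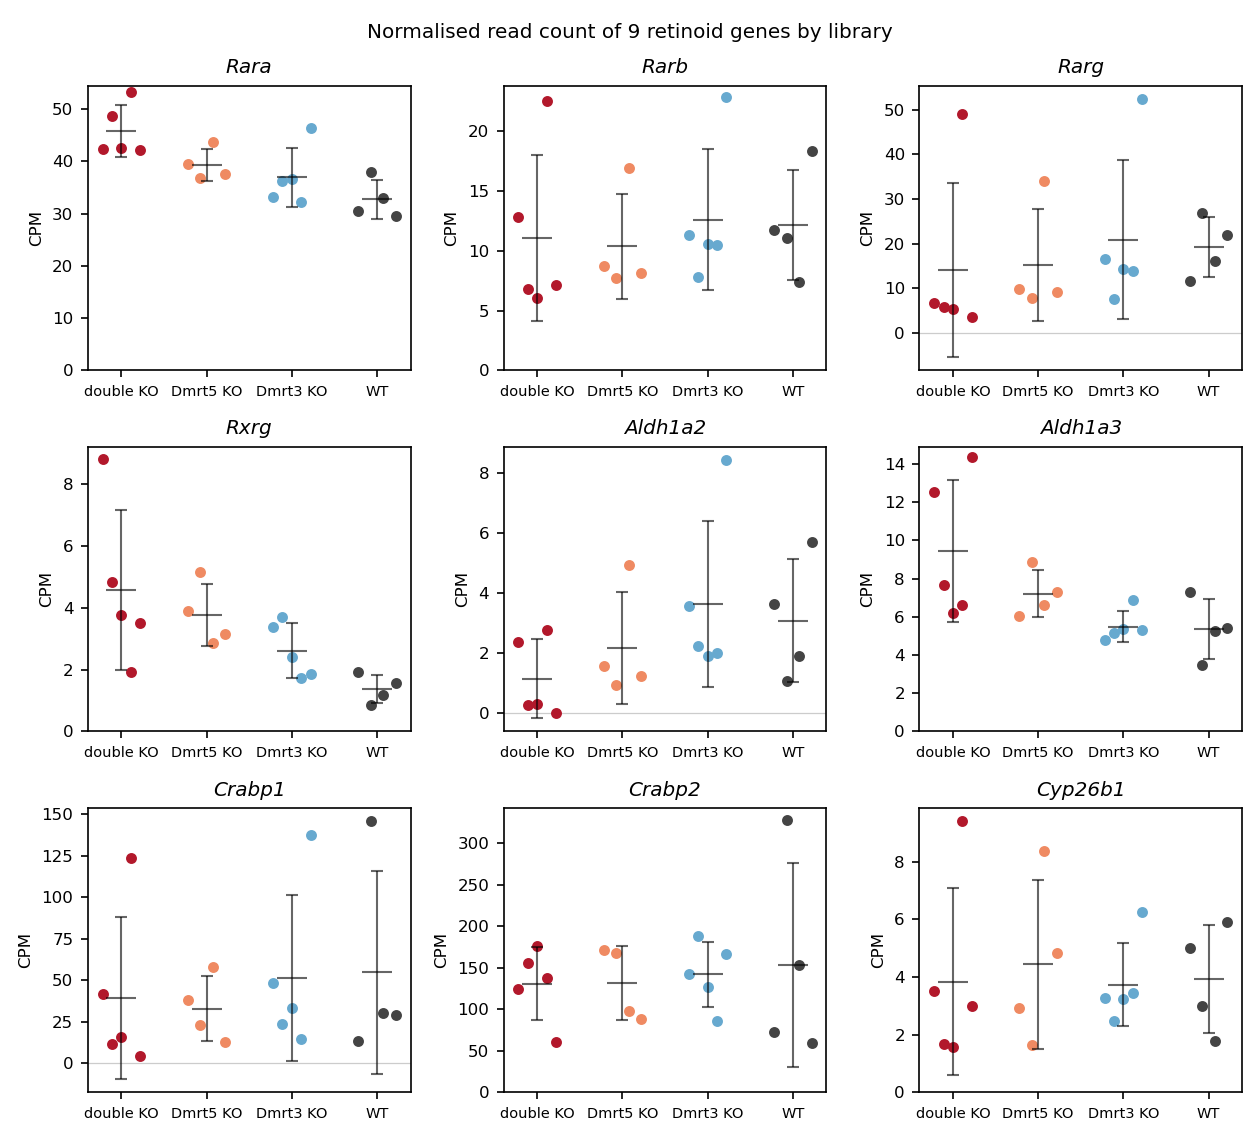
Levels of the 9 genes in CPM (vertical axes, linear) by genotype; each point is 1 library, and the bars give mean ± SD. The double KO points of Rara (42.1 to 53.2) lie above all WT points (29.6 to 37.9), while single high libraries stand out in Rarg, Rarb, Aldh1a2 and Cyp26b1.

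Levels per kilobase of exon sequence give the order of the members. The place of Rarb is uncertain, because 34.1% of its exon bases lie in exons of Top2b, as described below. In the double KO (SD, n = 5), Crabp2 and Crabp1 were the most abundant, at 99.1 ± 33.3 and 49.0 ± 61.1 CPM per kb, followed by Rara (10.5 ± 1.14), Rarg (3.32 ± 4.59) and Rarb (2.10 ± 1.32). Aldh1a3 (2.05 ± 0.806), Rxrg (1.99 ± 1.13), Cyp26b1 (0.717 ± 0.603) and Aldh1a2 (0.508 ± 0.583) were lowest there, and all neighbouring ranges overlapped. In WT (SD, n = 4), Crabp2 stood at 116 ± 93.3 CPM per kb, Crabp1 at 68.2 ± 76.3, Rara at 7.50 ± 0.852, Rarg at 4.51 ± 1.57 and Rarb at 2.31 ± 0.870. Aldh1a2 (1.36 ± 0.907), Aldh1a3 (1.16 ± 0.338), Cyp26b1 (0.732 ± 0.351) and Rxrg (0.600 ± 0.200) were lowest in WT. The WT ranges of neighbours were separate between Crabp1 and Rara and between Rara and Rarg, and overlapped elsewhere. The first 5 places were the same in all 4 genotypes, while Rxrg ranked 7 of 9 in the double KO and 9 of 9 in WT.

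Among the synthesis genes, Aldh1a3 was higher in the double KO on average without passing the threshold, and Aldh1a2 had the lowest values there. Aldh1a3 (ENSMUSG00000015134, mm10 chromosome 7, 66390890 to 66427517, minus strand) had 12.52, 7.67, 6.18, 6.60 and 14.4 CPM in the double KO libraries. The Dmrt5 KO libraries had 6.03, 8.87, 6.62 and 7.32 CPM, the Dmrt3 KO libraries 4.78, 5.17, 5.34, 6.86 and 5.30, and the WT libraries 7.29, 3.47, 5.25 and 5.44. Double KO replicates 1 and 5 were above every library of the other genotypes, and the other 3 double KO libraries lay within the WT range or just above it. The log2 fold change of Aldh1a3 was 0.82 ± 0.26 (SE) in the double KO against WT (edgeR adjusted p = 0.0766), and it passed without WT replicate 1 (1.0, adjusted p = 0.0489), without double KO replicate 3 (0.94, 0.0453) and without double KO replicate 4 (0.92, 0.028). DESeq2 called it (adjusted p = 0.0269). Without the libraries of mixed sex marks, chosen after seeing the data, it was 0.67 (adjusted p = 0.208). In Dmrt5 KO against WT the estimate was 0.42 ± 0.27 (adjusted p = 0.596).

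Aldh1a2 (ENSMUSG00000013584, chromosome 9, 71215789 to 71296243, plus strand), the meningeal enzyme, had 2.40, 0.274, 0.311, 2.77 and 0 CPM in the double KO, from 49, 6, 7, 65 and 0 counts. The 0 counts of replicate 5 allow a level of up to 0.117 CPM (3 counts), for counting error only. The Dmrt5 KO libraries had 1.58, 0.954, 4.94 and 1.23 CPM, the Dmrt3 KO libraries 3.59, 2.25, 1.90, 2.02 and 8.45, and the WT libraries 3.66, 1.07, 1.91 and 5.70. Double KO replicates 2, 3 and 5 were below every library of the other genotypes, and replicates 1 and 4 lay within the WT range. The log2 fold change in the double KO against WT was -1.44 ± 0.84 (adjusted p = 0.416). In bulk tissue, fewer cells of a type and less RNA per cell cannot be told apart.

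The binding and breakdown genes varied more between libraries of a genotype than between genotypes. Crabp1 (ENSMUSG00000032291, chromosome 9, 54764748 to 54773110, plus strand) ran from 4.52 to 123 CPM in the double KO (median 15.8), 12.7 to 57.8 in Dmrt5 KO, 14.4 to 138 in Dmrt3 KO (median 33.2) and 13.5 to 146 in WT. Crabp2 (ENSMUSG00000004885, chromosome 3, 87948666 to 87953376, plus strand) ran from 60.6 to 177 CPM in the double KO (median 138), 87.9 to 172 in Dmrt5 KO, 86.0 to 189 in Dmrt3 KO (median 142) and 59.4 to 328 in WT. Both binding protein genes were highest in WT replicate 2, the library of mixed sex marks that also held the most erythroid marker RNA. Cyp26b1 (ENSMUSG00000063415, chromosome 6, 84571414 to 84593908, minus strand), which degrades retinoic acid, averaged 3.84 ± 3.23 CPM in the double KO, 4.44 ± 2.92 in Dmrt5 KO, 3.74 ± 1.45 in Dmrt3 KO and 3.92 ± 1.88 in WT. For these 3 genes every estimate of a KO against WT lay within 1 SE of 0, with SEs of up to 0.860 in the double KO comparison. A difference of 1 SE is not enough for a call, so larger differences could also have been missed for the most variable gene.

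Rxrg (ENSMUSG00000015843, chromosome 1, 167598384 to 167639623, plus strand) encodes a retinoid X receptor with a restricted pattern in the developing brain. The double KO libraries had 8.80, 4.84, 3.78, 1.92 and 3.51 CPM, the Dmrt5 KO libraries 3.91, 5.14, 2.87 and 3.15, the Dmrt3 KO libraries 3.38, 3.71, 2.40, 1.72 and 1.85, and the WT libraries 1.91, 0.854, 1.19 and 1.56. All double KO libraries were above all WT libraries, but double KO replicate 4 (1.917 CPM, 45 counts) was nearly level with WT replicate 1 (1.914 CPM, 57 counts). All Dmrt5 KO libraries were also above WT, and the Dmrt3 KO libraries overlapped it. Rxrg rose 3.27-fold in the double KO (log2 1.71 ± 0.38 SE, adjusted p = 0.0107), where 2.57% of all tested genes lay wholly above WT. In Dmrt5 KO against WT the estimate was 1.43 ± 0.40 (adjusted p = 0.112), and 4.39% of tested genes lay wholly above WT. DESeq2 called that Rxrg difference (adjusted p = 0.0193). In Dmrt3 KO against WT it was 0.90 ± 0.38 (adjusted p = 0.65), with an overlap between libraries.

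The double KO call of Rxrg held without each single library, at adjusted p 0.00206 to 0.0422 and log2 1.33 to 1.90, the lowest estimate being that without double KO replicate 1. Without the libraries of mixed sex marks it was 1.56 (adjusted p = 0.048). It did not pass when the fit held the double KO and WT alone (adjusted p = 0.0861) or with a mesenchyme score as a term (log2 1.42, adjusted p = 0.142). Markers of the LGE were also higher in the double KO and Dmrt5 KO libraries than in WT. The sum of 16 LGE markers was 3276, 3459, 2860, 1953 and 3245 CPM in the double KO, 1824 to 2224 in Dmrt5 KO, 1020 to 1572 in Dmrt3 KO and 999 to 1311 in WT. Of the 16, 12 were called higher and 0 lower in the double KO against WT, where 2.42% of all tested genes were called higher. Their median log2 fold change was 1.59, and no LGE marker was at 0 in any library. Double KO replicate 4 was the lowest of its group both in that sum and in Rxrg, but the highest in Rara (53.2 CPM). In Dmrt3 KO replicate 2 was highest in both the sum (1572) and Rxrg (3.71 CPM). In the other genotypes the library of highest sum was not that of highest Rxrg. WT replicate 3 had a sum of 1311 with Rxrg at 1.19 CPM, and WT replicate 1 had 1073 and 1.91. Dmrt5 KO replicate 5 had 2224 and 3.15, and replicate 2 had 2169 and 5.14. The summed medial ganglionic eminence markers ran from 345 to 728 CPM in the double KO, 341 to 461 in Dmrt5 KO, 134 to 381 in Dmrt3 KO and 165 to 251 in WT. The eye marker sum was 3.20 to 6.18 CPM in the double KO, 4.35 to 6.43 in Dmrt5 KO, 11.3 to 19.2 in Dmrt3 KO and 17.2 to 22.4 in WT. Most of that difference was in 1 gene, the pigment cell gene Dct, at 0.398 CPM on average in the double KO, 1.69 in Dmrt5 KO, 8.66 in Dmrt3 KO and 13.96 in WT. Of 7 tested eye markers in the double KO against WT, 4 had positive and 3 negative estimates with a median of 0.34. Of these 7, 1 was called higher and 2 lower, beside 6.23% of all tested genes in either direction. The part of these cell types in the Rxrg, Rara and Aldh1a3 values was not tested.

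**Figure D2:**
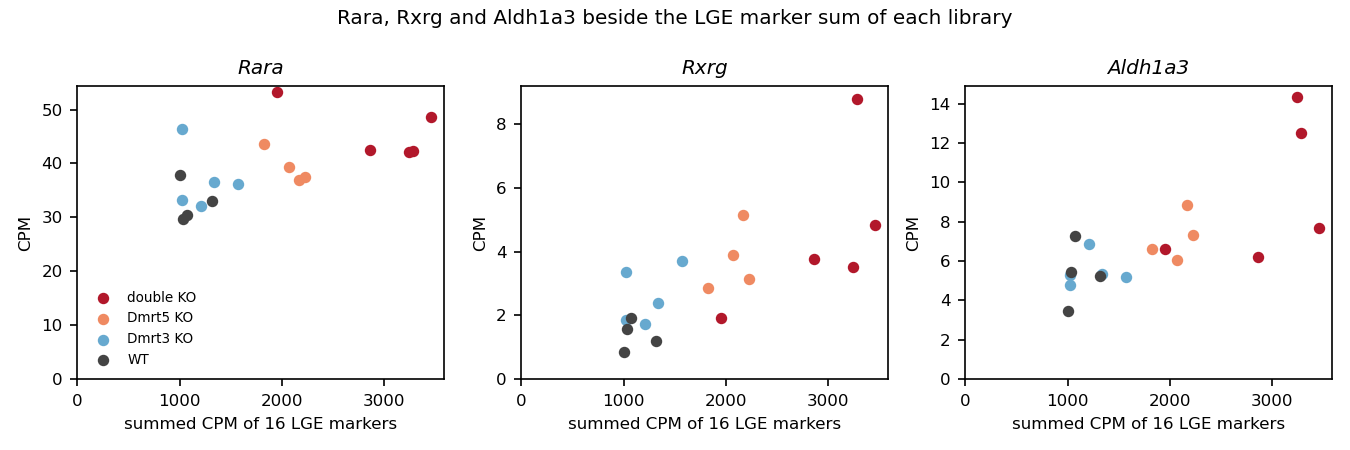
Levels of Rara, Rxrg and Aldh1a3 in CPM (vertical axes) against the summed CPM of 16 LGE markers (horizontal axes); each point is 1 library, coloured by genotype. Double KO libraries lie to the right (1953 to 3459 CPM) of the WT libraries (999 to 1311 CPM), and hold the highest values of all 3 genes.

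Rara (ENSMUSG00000037992, chromosome 11, 98927818 to 98974942, plus strand) encodes the broadly expressed retinoic acid receptor alpha. The double KO libraries had 42.3, 48.6, 42.5, 53.2 and 42.1 CPM, the Dmrt5 KO libraries 39.4, 36.9, 43.6 and 37.5, the Dmrt3 KO libraries 33.3, 36.2, 36.7, 32.1 and 46.4, and the WT libraries 30.5, 37.9, 33.0 and 29.6. All double KO libraries were above all WT libraries, whereas the Dmrt5 KO and Dmrt3 KO libraries overlapped WT. Rara rose 1.4-fold in the double KO (log2 0.48 ± 0.12 SE, adjusted p = 0.0237). The call was lost without WT replicate 1 (adjusted p = 0.0782), WT replicate 3 (0.07), WT replicate 4 (0.0769) or double KO replicate 2 (0.0566), or when the fit held the double KO and WT alone (0.144). The estimate stayed between 0.40 and 0.64 in every setting run, and without the libraries of mixed sex marks it was 0.58 (adjusted p = 0.0217). Against WT the estimate was 0.27 ± 0.13 in Dmrt5 KO (adjusted p = 0.453) and 0.17 ± 0.12 in Dmrt3 KO (adjusted p = 0.654). The small nuclear RNA gene Gm22061 overlaps the span of Rara, and whether the 2 genes share exon bases was not checked.

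**Figure D3:**
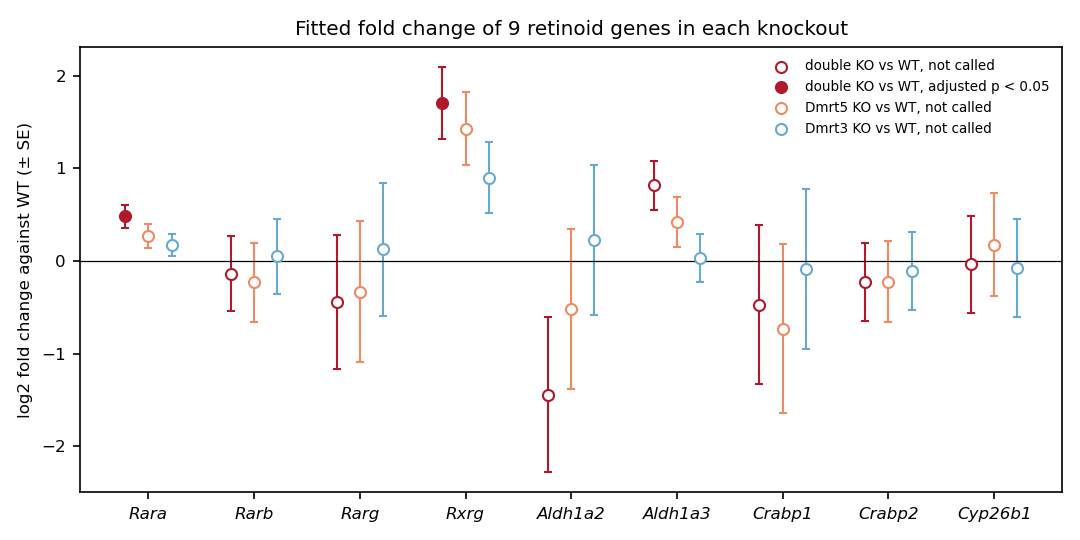
Log2 fold change of each of the 9 genes (± SE) in each KO against WT, with filled symbols for called genes. The filled symbols are Rxrg (1.71) and Rara (0.48), both in the double KO against WT.

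Rarg (ENSMUSG00000001288, chromosome 15, 102234938 to 102257517, minus strand), retinoic acid receptor gamma, differed more between libraries of each KO genotype than the other receptors, with a highest level 13.5 times the lowest in the double KO. The double KO libraries had 6.75, 5.75, 5.43, 49.1 and 3.63 CPM, the Dmrt5 KO libraries 9.84, 7.88, 34.0 and 9.18, the Dmrt3 KO libraries 16.5, 7.74, 14.3, 13.8 and 52.4, and the WT libraries 11.7, 27.0, 16.25 and 22.02. In the double KO, 4 libraries lay below every WT library and replicate 4 lay above them all. Over the 5 double KO libraries the log2 fold change against WT was -0.44 ± 0.72 (adjusted p = 0.871). Without double KO replicate 4 it was -1.83 (adjusted p = 0.0405), and without the highest mesenchyme library of each genotype, a setting added after seeing the data, it was -1.74 (adjusted p = 0.00263). With a mesenchyme score as a term the sign turned, at 0.58 (adjusted p = 0.719).

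Rarb (ENSMUSG00000017491, chromosome 14, 16430839 to 16819156, minus strand), whose own promoter carries the DR5 printed above, was not called in any comparison. Its level was 12.8, 6.85, 6.05, 22.5 and 7.14 CPM in the double KO libraries, 8.70, 7.71, 16.9 and 8.13 in Dmrt5 KO, 11.3, 7.78, 10.6, 10.5 and 22.9 in Dmrt3 KO, and 11.7, 11.1, 7.36 and 18.4 in WT. The groups overlapped throughout, and each KO estimate against WT lay within 1 SE of 0. Of the 5265 exon bases of Rarb, 1793 (34.1%) lie in exons of Top2b on the opposite strand, and the library kit does not mark strand, so reads there cannot be assigned to either gene. Top2b averaged 488 ± 166 CPM in the double KO, 377 ± 36.7 in Dmrt5 KO, 352 ± 53.8 in Dmrt3 KO and 420 ± 111 in WT.

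In the 18 libraries, 5 of the 9 genes moved with mesenchymal markers between libraries. The summed CPM of 12 such markers, collagens and mesenchymal transcription factors among them, was 386, 174, 170, 2249 and 69.0 in the double KO, 458 to 1809 in Dmrt5 KO, 611 to 2911 in Dmrt3 KO and 825 to 2597 in WT, and no marker was at 0 in any library. In the double KO against WT, 12 of 12 had negative estimates with a median of -1.17, with replicate 4 far above the other double KO libraries. Of the 12, 0 were called by edgeR or DESeq2 (6.23% and 7.53% of all tested genes). An unadjusted p under 0.05 was found for 1 (17.7%). The highest library was replicate 4 in the double KO, replicate 4 in Dmrt5 KO, replicate 5 in Dmrt3 KO and replicate 4 in WT. Rarb, Aldh1a2 and Cyp26b1 were highest in that same library in 4 of 4 genotypes, Rara, Rarg and Crabp1 in 3 of 4, and Rxrg, Aldh1a3 and Crabp2 in 0 of 4. Summed endothelium markers were highest in the same libraries, at 369 CPM in the double KO, 353 in Dmrt5 KO, 369 in Dmrt3 KO and 370 in WT. Surface and olfactory ectoderm markers were also highest in double KO replicate 4 (26.2 CPM), but in WT in replicate 2 (24.1). These libraries thus differ in more than mesenchyme, and the part of each tissue in the member values was not tested.

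With the mesenchyme score, the mean log2 level of those markers, added to the genotype means, 5 members had a positive slope that was called, where 5.32% of all tested genes did. The slopes, in log2 units per unit of score, were 1.06 ± 0.163 for Aldh1a2 (SE, adjusted p = 0.000398), 0.907 ± 0.168 for Crabp1 (0.00216), 0.775 ± 0.0867 for Rarg (1.3e-05), 0.421 ± 0.105 for Cyp26b1 (0.0219) and 0.413 ± 0.0639 for Rarb (0.000431). Rara (0.0721 ± 0.034), Rxrg (-0.125 ± 0.131), Aldh1a3 (-0.132 ± 0.0723) and Crabp2 (0.0467 ± 0.148) were not called (adjusted p 0.278, 0.733, 0.365 and 0.962). Without double KO replicate 5, the library of lowest score, those 5 genes were called again (7.37% of tested genes). The libraries also differ in their gene length trend, the rise of log2 level with transcript length. With that trend as the added term, 61.8% of all tested genes were called. Crabp2 had a slope of -0.50 ± 0.0556 per 0.1 of the trend (adjusted p = 8.77e-07). Aldh1a3 had one of 0.18 ± 0.0647 (adjusted p = 0.0229), which was not called without double KO replicate 5 (0.135, adjusted p = 0.214). That library has the steepest trend of all 18 (0.326) and the highest Aldh1a3 level. The Aldh1a3 estimate in the double KO against WT was 0.74 with the trend as a term (adjusted p = 0.0255) and 0.61 without replicate 5 (0.161).

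**Figure D4:**
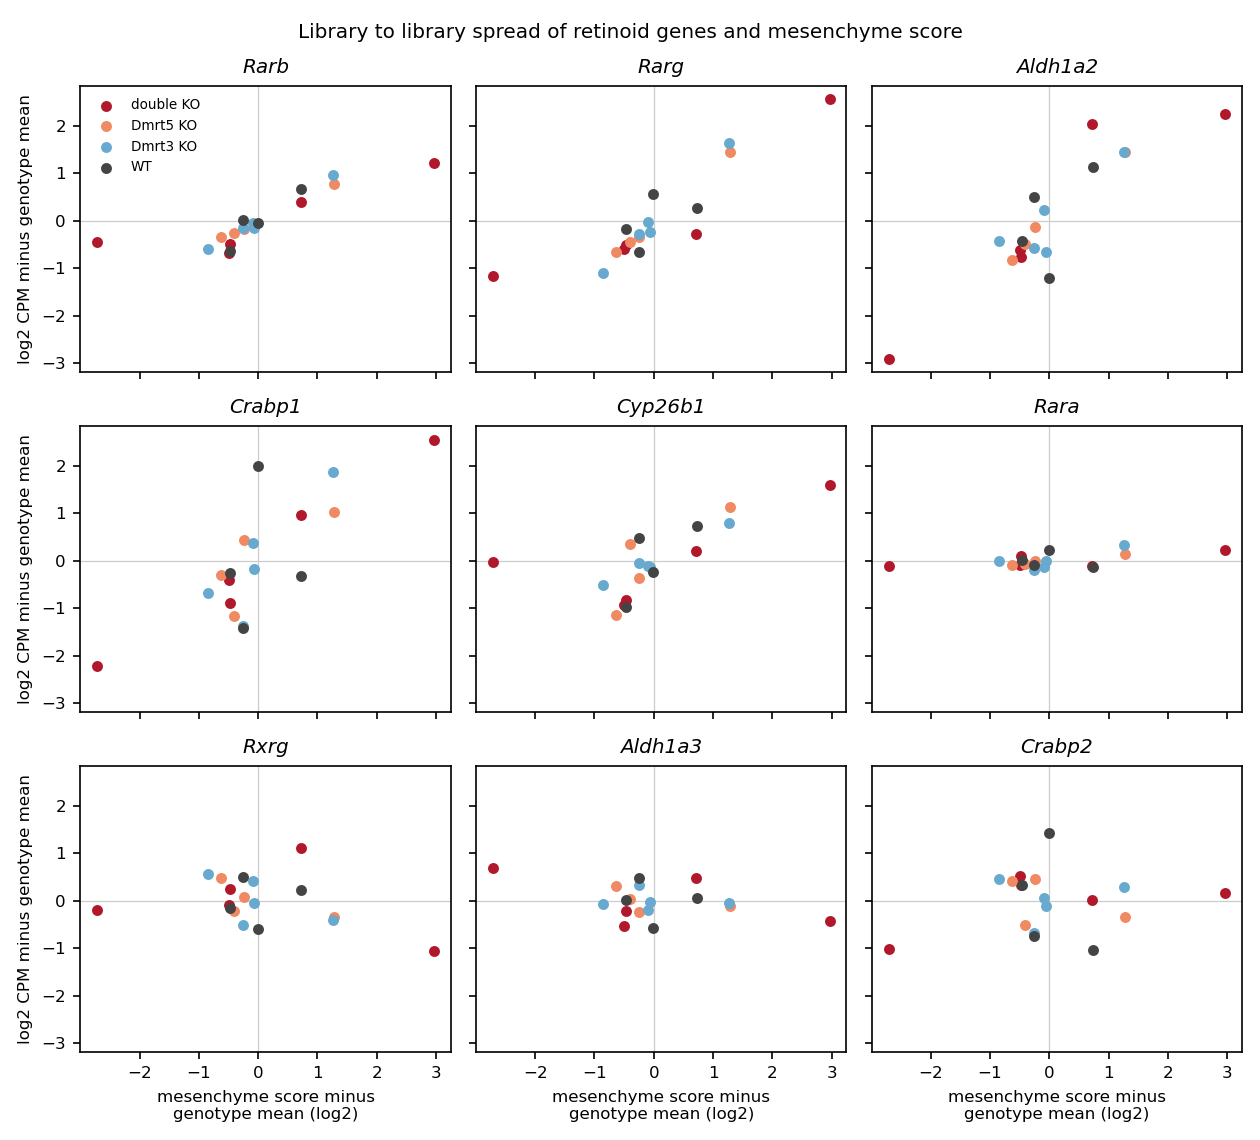
Log2 CPM of each gene minus the mean of its genotype (vertical axes) against the mesenchyme score minus its genotype mean (horizontal axes, log2); each point is 1 library, coloured by genotype. Rarb, Rarg, Aldh1a2, Crabp1 and Cyp26b1 points climb to the right, the 5 genes with a called slope, while Rara, Rxrg, Aldh1a3 and Crabp2 points have no called slope.

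Between the double KO and each single KO, 0 of 9 members were called by edgeR. Against Dmrt3 KO edgeR called 3.7% of all tested genes; 3 of 9 members had an unadjusted p under 0.05 (17.4% of all tested genes) and DESeq2 called 1 (5.11%). Aldh1a3 stood at 9.47 ± 3.72 CPM in the double KO and 5.49 ± 0.797 in Dmrt3 KO (log2 0.78 ± 0.24 SE, adjusted p = 0.0926), and was called without double KO replicate 4 (0.89, adjusted p = 0.0303) and by DESeq2 (adjusted p = 0.0314). Rara (0.31 ± 0.11, adjusted p = 0.178), Rxrg (0.81 ± 0.35, 0.25) and Aldh1a2 (-1.67 ± 0.81, 0.296) did not pass. Rarg was at -0.57 ± 0.68 (adjusted p = 0.655), at -1.96 without double KO replicate 4 (adjusted p = 0.0316) and at 0.11 without Dmrt3 KO replicate 5 (adjusted p = 0.941). Against Dmrt5 KO, where edgeR called 0.333% of all tested genes, 0 members had an unadjusted p under 0.05 (4.71%) and DESeq2 called 0 (0.418%), with Rara at 0.22 ± 0.12, Aldh1a3 at 0.39 ± 0.26 and Aldh1a2 at -0.93 ± 0.85 (adjusted p 0.997 each).

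The interaction asks whether the double KO departs from the sum of both single KO effects on the log2 scale. For 0 of 9 members was it called by edgeR (0.142% of all tested genes), with 0 at an unadjusted p under 0.05 (9.22%) and 0 by DESeq2 (0.663%). For Rxrg it was -0.62 ± 0.52 (adjusted p = 0.651). The SEs of the members' interactions ran from 0.172 to 1.22, so only large departures could have been seen.

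Calls among other genes of the pathway are given beside the shares of all tested genes. Of 21 further genes for retinoid transport, oxidation, breakdown and dimer partners, 15 were tested. Against WT, edgeR called 0 of them in the double KO (6.23% of all tested genes), Dmrt5 KO (1.03%) and Dmrt3 KO (0.0123%). In the double KO 3 had an unadjusted p under 0.05 (17.7% of all tested genes) and DESeq2 called 1 (7.53%). Both counts were 0 in Dmrt5 KO (11.3% and 2.32%) and in Dmrt3 KO (7.16% and 0.248%). Their median log2 fold change was 0.00 in the double KO, 0.05 in Dmrt5 KO and 0.18 in Dmrt3 KO. Cyp26a1, another degrading enzyme, averaged 0.669 ± 0.229 CPM in the double KO and 0.304 ± 0.286 in WT (log2 1.25 ± 0.49, adjusted p = 0.175). Dhrs4, a retinal reductase, averaged 31.1 ± 6.95 CPM in the double KO and 45.5 ± 12.6 in WT (log2 -0.55 ± 0.20, adjusted p = 0.136). It fell in the double KO against Dmrt3 KO (53.1 ± 8.21 CPM there; log2 -0.77, adjusted p = 0.03), a call lost without Dmrt3 KO replicate 1, 2, 3 or 5 or double KO replicate 5 (0.0501 to 0.0979). Rxra, the widely expressed X receptor, averaged 73.5 ± 25.1 CPM in the double KO and 73.3 ± 5.92 in WT, and Rxrb 135 ± 28.9 and 133 ± 27.1.

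Of 16 genes known to respond to retinoic acid, 11 were tested. Against WT, edgeR called 1 higher in the double KO and 1 in Dmrt5 KO (2.42% and 0.339% of all tested genes). It was Meis1 in both, a homeobox gene also active in the LGE. DESeq2 called 4 in the double KO, and 7 had an unadjusted p under 0.05, beside 7.53% and 17.7% of all tested genes. This list shares 4 genes with the further pathway genes, Cyp26a1 among them, and 1, Nrip1, with the coregulators, so its counts are not separate from theirs. Meis1 had 76.8, 82.3, 73.6, 62.0 and 103 CPM in the double KO, 66.4, 76.5, 73.8 and 73.9 in Dmrt5 KO, 46.7, 51.9, 57.9, 61.0 and 42.8 in Dmrt3 KO, and 49.8, 39.0, 44.9 and 44.3 in WT. Its double KO and Dmrt5 KO libraries were above every WT library and every Dmrt3 KO library. It rose 1.78-fold in the double KO against WT (log2 0.84 ± 0.14 SE, adjusted p = 0.00111), in every setting run, and in Dmrt5 KO (0.71 ± 0.14, adjusted p = 0.0208). The Dmrt5 KO call was lost without WT replicate 3 or 4 or Dmrt5 KO replicate 2, 4 or 5 (0.0578 to 0.0835) and without the libraries of mixed sex marks (0.0629). Against Dmrt3 KO, Meis1 (0.61 ± 0.13, adjusted p = 0.00991) and Nrip1 (0.88 ± 0.20, 0.0142), a nuclear receptor corepressor, rose in the double KO, and the transglutaminase gene Tgm2 fell by 0.97 (0.0305). These 3 did not pass with the mesenchyme score as a term (adjusted p 0.252, 0.2 and 0.156) or when the fit held the double KO and Dmrt3 KO alone (0.0586, 0.0594 and 0.127). Tgm2 also lost its call without any of 7 single libraries, Dmrt3 KO replicates 1, 3, 4 and 5 and double KO replicates 1, 2 and 3 (0.0522 to 0.0759).

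Of 9 receptor coregulators, all tested, 0 were called by edgeR in any KO against WT. Of all tested genes, edgeR called 6.23% in the double KO, 1.03% in Dmrt5 KO and 0.0123% in Dmrt3 KO. In the double KO 1 coregulator had an unadjusted p under 0.05 (17.7% of all tested genes) and DESeq2 called 1 (7.53%). In Dmrt5 KO both counts were 0 (11.3% and 2.32%). In Dmrt3 KO 9 of 9 had negative estimates with a median of -0.40. There 4 had an unadjusted p under 0.05 (7.16% of all tested genes) and DESeq2 called 0 (0.248%). Their summed level was 578 to 692 CPM in Dmrt3 KO, and 887.5, 587.5, 742.7 and 1244 in WT. WT replicate 4, the highest of these, has the steepest gene length trend in WT (0.244), and the double KO library of steepest trend, replicate 5, also had the highest sum (1284). The corepressor gene Ncor1 stood at 113 ± 16.4 CPM in Dmrt3 KO and 176 ± 71.8 in WT (log2 -0.64 ± 0.26, adjusted p = 0.65). The coactivator gene Crebbp stood at 25.8 ± 11.7 CPM in Dmrt3 KO and 59.8 ± 43.9 in WT (log2 -1.21 ± 0.57, adjusted p = 0.65). Without WT replicate 4 the estimates were -0.36 for Ncor1 and -0.68 for Crebbp (adjusted p = 1 each). With the length trend as a term they were -0.33 (adjusted p = 0.00998) and -0.44 (0.47). Of 10 other nuclear receptors that pair with retinoid X receptors, 7 were tested. Beside 6.23% of all tested genes, 1 of the 7 was called in the double KO against WT, Nr4a2. It averaged 16.9 ± 5.14 CPM in the double KO and 32.3 ± 9.995 in WT (log2 -0.94 ± 0.22, adjusted p = 0.0154), with overlapping libraries, and the call was lost without WT replicate 4 (adjusted p = 0.0668), without the highest mesenchyme libraries (0.0847) and when the fit held the double KO and WT alone (0.108).

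The genes nearest in pattern to the called members were found by the root mean square difference of centred log2 CPM over the 18 libraries, among 12798 genes. For Rara they were Speg (0.115), Micall2 (0.126) and Tsc22d3 (0.134), beside an SD of 0.227 for Rara itself. For Rxrg they were Tmeff2 (0.317), Zcchc12 (0.326) and Gng4 (0.340), beside an SD of 0.774 for Rxrg.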

How the data were processed

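The deposited values are raw counts of reads per Ensembl gene. Tools named in the submitters' processing notes are STAR 2.3.0e, featureCounts 1.4.6-p1, FastQC 0.10.1, DESeq2 1.8.2, CASAVA 1.8.2 and bcl2fastq, beside the build mm10. Per the labels' protocols, RNeasy columns and the TruSeq RNA Sample Prep Kit v2 were used. Neither annotation release nor strand setting is given in the sources used here. Symbols and coordinates came from GENCODE M21 (GRCm38, the assembly of mm10), matching 36602 of 38355 identifiers; unmatched ones held 0.397% of counts.

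Counts were fitted here with edgeR 4.0.16 in R 4.3.3: filterByExpr by genotype, TMM scaling, quasi-likelihood tests with 1 mean per genotype over all 18 libraries, and Benjamini-Hochberg adjustment over 16236 genes. All tests are two-sided. CPM values were computed from the counts; log2 CPM used a prior count of 2. Each SE was derived from the F statistic and its fold change. The fit was tested on simulated counts. Sums of marker CPM use deposited counts scaled in the same way.

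The 9 members, the gene lists and the markers were chosen with earlier results of these data known. Named list genes are up to 4 per list with the lowest adjusted p in a KO against WT; of calls between the double KO and Dmrt3 KO, Meis1, Nrip1, Dhrs4 and Tgm2 were named for being called there. Top2b and Gm22061 were named for their overlap with members, and Rxra and Rxrb as the other X receptors. Some genes that the rule names are not reported here. Alternatives were DESeq2 1.42.0, RLE scaling, no filter on low counts, only the genotypes compared, terms for sex, mesenchyme score or length trend, a replicate block, and leaving out each library. Leaving out the highest mesenchyme library of each genotype, and the libraries of mixed sex marks, was added after seeing the data.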

Additional observations from a re-analysis of the deposited data

Results flagged for a closer look

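In 12 of 36 groups, each 1 member in 1 genotype, the highest library stood apart from the others by Dixon's test at its 95% critical value, which chance passes in about 1 in 20 groups; the groups share libraries and are not independent. Dmrt3 KO replicate 5 was the library that stood apart for Rarg (52.42 CPM), Rarb (22.85), Aldh1a2 (8.449), Crabp1 (137.6) and Cyp26b1 (6.251). Dmrt5 KO replicate 4 stood apart for Rarg (34.04 CPM), Rarb (16.94) and Aldh1a2 (4.942). Double KO replicate 4 stood apart for Rarg (49.07 CPM) and Cyp26b1 (9.414). These 3 libraries held the most mesenchyme marker RNA of their genotypes, and also the most endothelium marker RNA. WT replicate 2 stood apart for Crabp1 (145.8 CPM), and Dmrt3 KO replicate 4 for Aldh1a3 (6.858 CPM).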

How the results depend on the processing

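Counts of called members kept within 1.5 times under the alternatives not listed here. In the double KO against WT, 2 members were called: with only these genotypes 0, with the mesenchyme score as a term 1, and without each library in turn 1 to 4. In the double KO against Dmrt3 KO, 0 were called: DESeq2 called 1, leaving out the highest mesenchyme library of each genotype gave 1, and leaving out single libraries gave 0 to 2. In Dmrt5 KO against WT, 0 were called: DESeq2 called 1 and the replicate block 1, Rxrg (log2 1.44, adjusted p = 0.0418). With the mesenchyme score as a term, estimates changed sign for Rarg in the double KO against WT (0.58) and Dmrt3 KO (0.60), and for Aldh1a2 against WT (0.08) and Dmrt5 KO (0.02). Without single libraries, Rarg against Dmrt3 KO ran from -1.96 to 0.11, and Ncor1 in the double KO against WT from -0.56 to 0.03. Without the highest mesenchyme libraries Ncor1 was 0.05, and Nr4a2 in Dmrt3 KO against WT 0.00. The causes were not tested. Apart from DESeq2, the shares of all tested genes called under these alternatives were not recorded. A general change in the number of calls therefore cannot be told from a change in the members. The interaction needs all 4 genotypes, so the fit of only the genotypes compared gave no value for it.

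The labels state no pairing, so same-numbered libraries of different genotypes were not taken as pairs in the main fit. Their deviations correlated at -0.497 to 0.783 (24 pairs, median 0.335, 16 over 0.1). Differently numbered libraries gave -0.805 to 0.778 (97 pairs, median -0.174, 37 over 0.1), so same numbers deviated together more often, and 6 of 18 libraries correlated best with their own number. The p-values of the main fit do not account for this, whereas the replicate block does. Low counts limit Aldh1a2, with 0 to 65 counts in double KO libraries. They also limit Rxrg, with 16 to 57 counts in WT and 45 to 180 in double KO libraries. Among members, SEs in the double KO comparison with WT ran from 0.123 to 0.860.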
